A study of Mus musculus with 4 samples.

Results

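Periportal hepatocyte nuclei were the hepatocyte nuclei with the highest transcript score for Sds, Hal, Gls2, Uroc1 and Gldc within each library, and 3070 of 12284 gated hepatocyte nuclei met the rule. A gated hepatocyte nucleus held at least 3000 unique molecular identifiers (UMIs, each counting 1 captured transcript), at most 5% mitochondrially encoded UMIs, at least 10 UMIs of Cps1 and Apob together, and at most 2 UMIs over 7 endothelial, stellate and immune genes (Ptprb, Stab2, Reln, Cd5l, Clec4f, Skap1 and Pax5). The portal score was the sum of the 5 genes per 10000 UMIs. Nuclei in the top 25% of their library were taken, and those in its top 10% by a central score (Slc1a2, Lgr5, Rcan2, Kif26b, Slc22a3 and Glul) were left out. The 4 matrices held 26591 barcodes in all.

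The series sequenced nuclear RNA from tumor-free parts of the livers of male mice. Every mouse, in both groups, had been given the liver carcinogen diethylnitrosamine (DEN) at 25 mg/kg when 14 days old and was killed at 12 months of age. The genotypes were Brca1-WT and Brca1-KO, with 2 libraries each that the labels call biological replicates, and p-values measure the spread between these samples. The sources used here do not give how Brca1 was deleted, in which cells or which exons. Mice without DEN were not analysed here. The series title names hepatic Brca1, a DNA repair gene, and Bhmt, the betaine-dependent enzyme that turns homocysteine into methionine.

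Blood enters the liver lobule at the portal tract and leaves at the central vein, and hepatocytes along this path divide their work. Periportal hepatocytes are known for urea synthesis, gluconeogenesis and the breakdown of amino acids such as serine, glycine, histidine and glutamine. Pericentral hepatocytes, which receive Wnt signals from the central vein, make glutamine and carry many cytochrome P450 enzymes. Sds (serine dehydratase), Hal (histidine ammonia-lyase), Uroc1 (urocanate hydratase), Gls2 (liver glutaminase) and Gldc (the glycine-cleaving decarboxylase) are all enzymes of that periportal amino acid breakdown.

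Values in a run of 4 are given for Brca1-WT replicates 1 and 2 and then for the 2 libraries whose label is Brca1-KO, named KO-labelled library 1 and KO-labelled library 2 by their replicate numbers. The periportal nuclei numbered 654, 874, 613 and 929, with 6325060 to 7304963 UMIs per library, and the central score removed only 2 nuclei, both in Brca1-WT replicate 2. Their median depth was 8084.5, 6171, 9185 and 6377 UMIs, lower in each library than in the other gated nuclei (9609.5, 7019, 10276.5 and 8701.5). Pairs of libraries shared 9 to 20 barcodes, at most 0.292% of the smaller library. Brca1 did not follow the labels in these nuclei: its level was 12.2 and 10.3 CPM (UMI counts of a gene scaled to a common library total, here with trimmed-mean normalisation, TMM) in the Brca1-WT libraries, 16.5 CPM in KO-labelled library 1 and 5.63 CPM in KO-labelled library 2. The counts come from the 3′ end of transcripts, so a deletion elsewhere in the gene may not show. Every direction between genotypes below rests on the labels as given. KO-labelled library 2 stood apart: of 6239 genes at 20 CPM or more, 199 (3.19%) lay over 2-fold above or below all of the other libraries, against 45, 11 and 39 genes for the other libraries.

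The score genes are given as a description, because they chose the nuclei. Hal stood at 708, 1218, 1135 and 550 CPM in periportal nuclei and at 59.3, 194, 199 and 82.9 CPM in the other gated nuclei. Sds stood at 673, 1166, 1547 and 298 CPM, against 53.4, 214, 251 and 48.8 CPM. Sds varied most between libraries among the 5, and KO-labelled library 2 was the lowest in 4 of the 5 genes. Gldc ranged from 581 to 869 CPM, Uroc1 from 445 to 751 CPM and Gls2 from 307 to 689 CPM in periportal nuclei. Of the central genes, Slc1a2, a glutamate transporter, was at 8.78 to 27.7 CPM in periportal nuclei, and Glul, glutamine synthetase, was at 8.02 to 19.4 CPM.

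Each of the 5 enzymes was also high in nuclei that the other 4 chose. When nuclei were chosen with 4 of the genes, the gene left out was still higher in the chosen nuclei of every library, by 3.90 to 8.36 times for Sds, 3.46 to 6.94 times for Hal, 2.54 to 3.58 times for Gldc, 2.30 to 3.0 times for Uroc1 and 2.12 to 3.44 times for Gls2. Between 83.6% and 95.1% of the periportal nuclei were chosen again, an overlap that the 4 shared genes and the same cut largely fix in advance. With each nucleus thinned to 3000 UMIs, all 5 genes were detected in 28.4%, 57.2%, 55.6% and 13.2% of periportal nuclei. The same share was 0, 2.38%, 1.20% and 0 in high-central nuclei, which were chosen by the mirrored rule (the top 25% by central score, leaving out the top 10% by portal score and any periportal nucleus). Both sets were chosen with these genes, so the shares are a description. The 2 shares of 0 come from 645 and 830 nuclei, which allow up to 0.465% and 0.361% (3 nuclei, counting error only).

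Because the rule takes a fixed share of each library, the score at its border differed: it was 19.3, 36.0, 37.1 and 16.7 per 10000 UMIs. The last nucleus inside and the first outside were at 19.33 and 19.31 in Brca1-WT replicate 1, and the gap was narrow in the other libraries too. Cyp2f2, a cytochrome P450 outside the score, was at 378, 301, 309 and 428 CPM in the nuclei just inside the border and at 329, 293, 289 and 399.5 CPM in as many nuclei just outside. Cyp2e1, a pericentral P450, was at 691, 268, 144 and 193 CPM just inside and at 881, 308, 247 and 201 CPM just outside. The levels on both sides were close for Cyp2f2 in every library, and for Cyp2e1 the gap was widest, in proportion, in KO-labelled library 1.

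**Figure D1:**
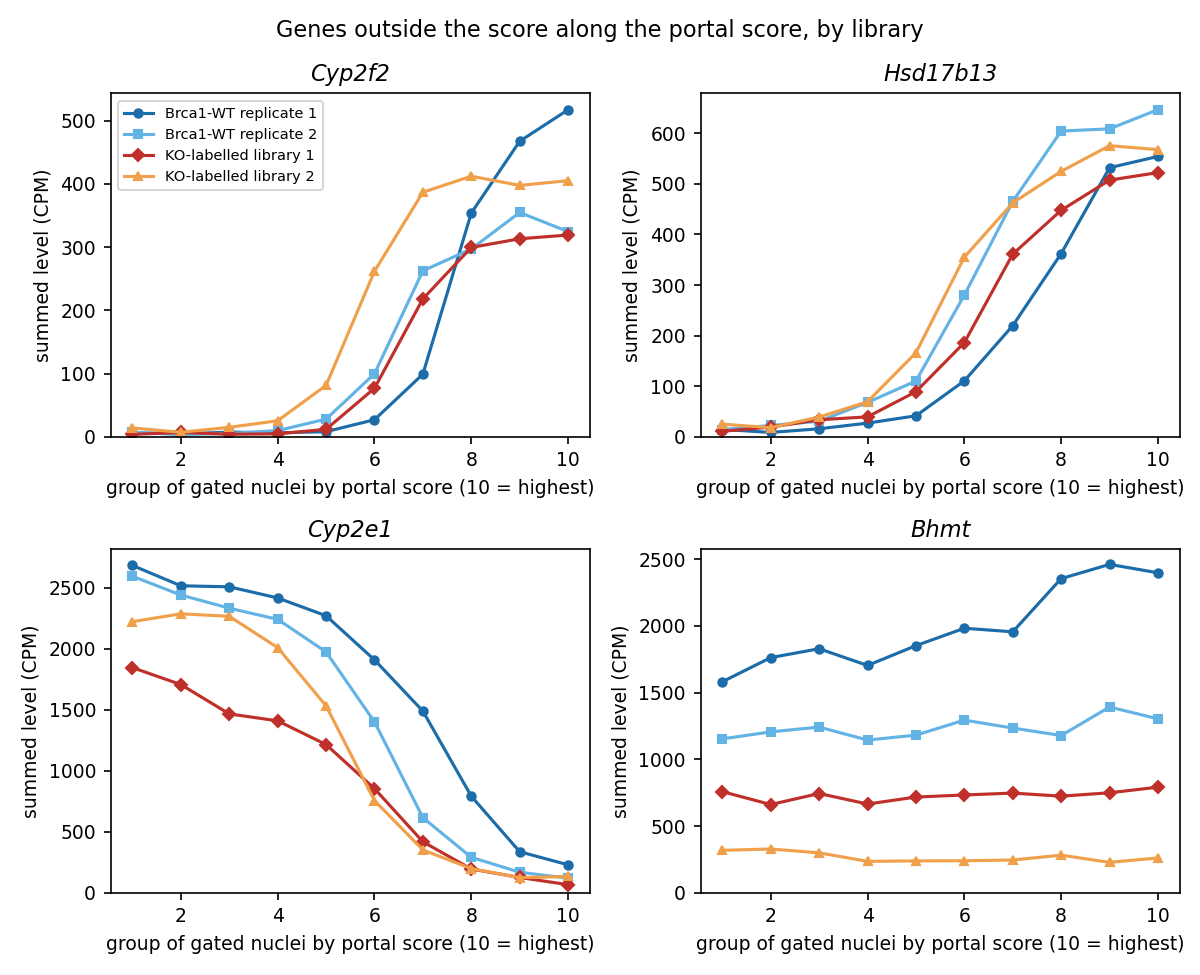
Level (CPM of summed UMIs) of Cyp2f2, Hsd17b13, Cyp2e1 and Bhmt in 10 equal groups of the gated hepatocyte nuclei ordered by portal score (10 is the highest), 1 line per library. Cyp2f2 and Hsd17b13 climb and Cyp2e1 declines between groups 4 and 9 in all 4 libraries, while the 4 Bhmt lines stay separate along the whole score.

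Cyp2f2 went from 6.40 to 517 CPM between the lowest and the highest group in Brca1-WT replicate 1, from 7.35 to 324 CPM in Brca1-WT replicate 2, from 3.87 to 319 CPM in KO-labelled library 1 and from 14.0 to 405 CPM in KO-labelled library 2. In group 6 Cyp2f2 was at 27.0, 99.8, 76.8 and 262 CPM, so the climb came at a lower rank in KO-labelled library 2 and at a higher rank in Brca1-WT replicate 1. Cyp2e1 ran the other way, from 2683 to 230 CPM, 2594 to 120 CPM, 1845 to 66.9 CPM and 2222 to 135 CPM. Ass1, the urea cycle enzyme argininosuccinate synthase, approached its highest level by group 5 in each library (1454, 2237, 3058 and 483 CPM) and was similar in the highest (1555, 2225, 3264 and 488 CPM). Within the periportal nuclei, split into 4 equal groups by score, Cyp2f2 differed little in 3 libraries, for example 312, 365, 335 and 312 CPM from the lowest to the highest group of Brca1-WT replicate 2. It went from 383 to 519 CPM in Brca1-WT replicate 1. Median depth was lower in the highest of these groups than in the lowest in every library, for example 6879 against 8933.5 UMIs in Brca1-WT replicate 1.

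Genes outside the rule were compared between periportal and other gated nuclei of the same library by the ratio of CPM, with 1 CPM added to both. Since expression in the same nuclei chose them, no test was made. Genes were kept if they averaged at least 20 CPM in the periportal or in the other gated nuclei, so 1 side sufficed. Fgfr1 was kept through periportal nuclei (22.3 against 3.50 CPM) and Pparg through the others (47.8 against 2.20 CPM). Such genes favour large ratios both ways. Of the 6396 genes kept, 37 (0.578%) were more than 2-fold higher in all 4 libraries and 64 (1.0%) more than 2-fold lower. Without a minimum size, 25.9% were higher and 25.2% lower in all 4. The median log2 ratio over these genes was 0.00.

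**Figure D2:**
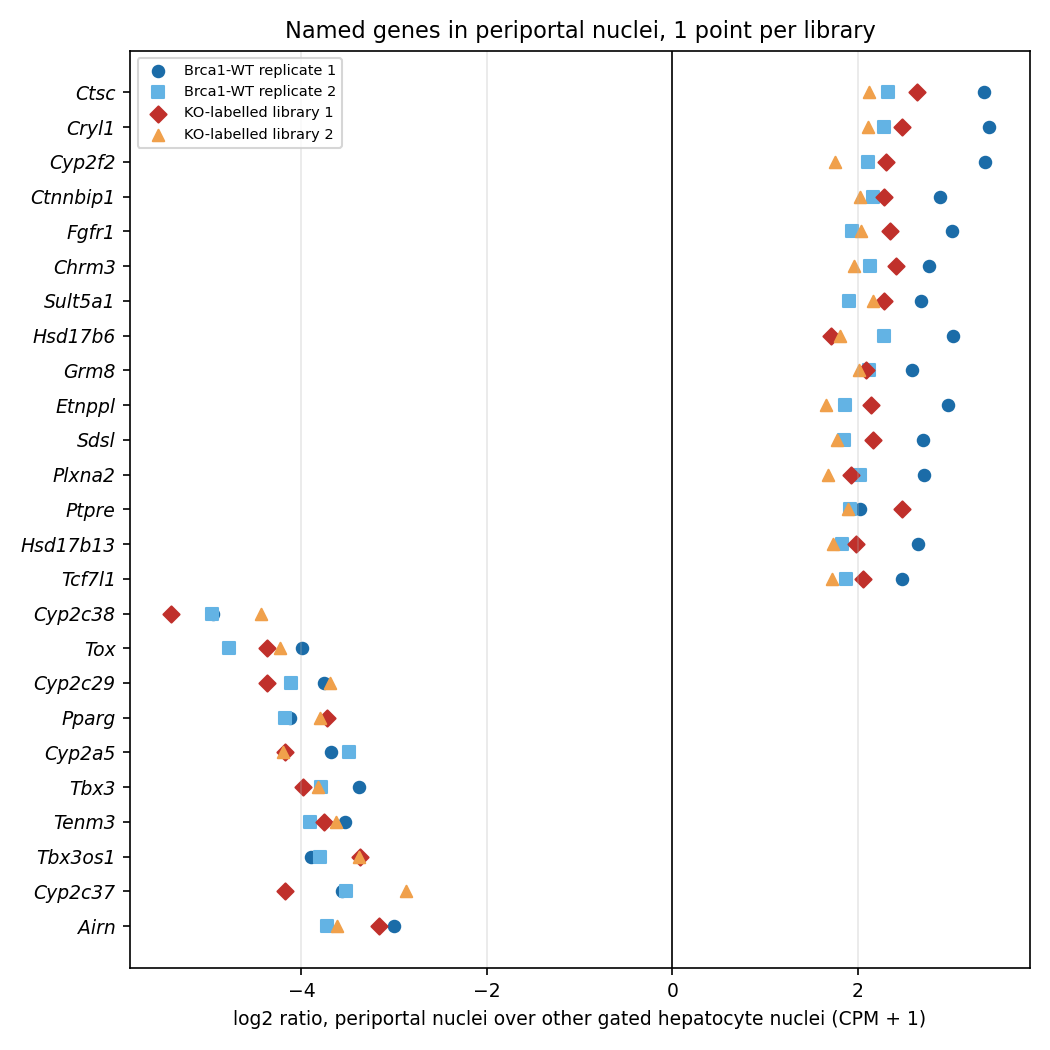
log2 ratio of periportal over other gated hepatocyte nuclei (CPM + 1) for the 15 genes highest and the 10 lowest by the library nearest to 0, 1 point per library. The lowest point of the 15 is at 1.66 and the highest point of the 10 at -2.87.

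Ctsc, the lysosomal protease cathepsin C, led the 15, at 108, 66.9, 80.7 and 126 CPM in periportal nuclei against 9.60, 12.6, 12.1 and 28.3 CPM in the others (mean log2 ratio 2.61 ± 0.55, SD, n = 4). Cyp2f2 was at 467, 332, 314 and 406 CPM against 44.1, 76.0, 62.5 and 119 CPM. Hsd17b13, a lipid droplet protein, was at 515, 624, 505 and 565 CPM against 81.2, 175, 127 and 170 CPM. Periportal and other nuclei did not overlap over the 4 libraries in these 3 genes. Etnppl, which breaks down phosphoethanolamine, was at 265, 387, 287 and 172 CPM against 32.9, 105, 63.8 and 53.5 CPM. Cryl1, a gulonate dehydrogenase, was at 229 to 390 CPM in periportal nuclei, and Sult5a1, a sulfotransferase, was at 60.4 to 195 CPM.

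Chrm3, the M3 muscarinic acetylcholine receptor, was at 434, 389, 356 and 667 CPM against 62.7, 87.5, 66.0 and 171 CPM. Grm8, a metabotropic glutamate receptor, was at 576, 212, 275 and 536 CPM against 94.9, 47.8, 63.6 and 132 CPM. Both were at least 3.89-fold higher in every library. Ctnnbip1, which blocks the binding of β-catenin to TCF factors, was at 41.6, 76.8, 54.8 and 52.0 CPM against 4.76, 16.4, 10.5 and 12.0 CPM. Tcf7l1, a TCF factor known as a repressor, was at 208, 312, 177 and 298 CPM against 36.4, 84.3, 41.6 and 89.3 CPM. Of the 14 measured zonation regulators, 5 were higher in all 4 libraries and 3 lower, against 25.9% and 25.2% of all genes kept. This list has several Wnt pathway genes, includes Tcf7l1 and had a median log2 ratio of 0.08. The 3 lower were Tbx3, Rnf43 and Znrf3. The mean log2 ratio was -1.27 ± 0.12 for Rnf43, a ubiquitin ligase that removes Wnt receptors, 0.06 ± 0.09 for Ctnnb1 (β-catenin), 0.02 ± 0.08 for Apc and 0.25 ± 0.07 for Tcf7l2 (SD, n = 4).

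Tcf7l1, Plxna2, Ptpre and Fgfr1, all among the 15, are also endothelial genes in these libraries. In barcodes that express endothelial markers Tcf7l1 was at 811 to 977 CPM, Plxna2, a semaphorin receptor, at 492 to 699 CPM, Ptpre, a tyrosine phosphatase, at 82.6 to 99.8 CPM and Fgfr1, a fibroblast growth factor receptor, at 42.3 to 57.7 CPM. All 4 genes were lower in periportal nuclei (Tcf7l1 177 to 312 CPM). The 10 endothelial markers, 2 of which the rule uses, summed to 61.0, 49.5, 34.7 and 21.5 CPM in periportal nuclei and to 58.3, 42.7, 32.7 and 17.1 CPM in the other gated nuclei. The part of endothelial RNA in these 4 genes was not tested.

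Markers of the bile duct, the other epithelial type at the portal tract, were summed over 10 genes. The sums were 122, 75.9, 83.2 and 103 CPM in periportal nuclei and 116, 69.0, 75.1 and 86.5 CPM in the others. They were thus slightly higher in the periportal nuclei of every library. Of the 10 markers, 2 to 5 were at 0 in the periportal nuclei of a library. Krt19 and Epcam were at 0 there in all 4 libraries, and in the high-central nuclei too, so their absence was not particular to periportal nuclei. Kupffer cell markers summed to 8.02 to 24.8 CPM, stellate markers to 14.7 to 23.8 CPM, T and NK cell markers to 5.90 to 13.3 CPM and B cell markers to 2.72 to 10.1 CPM. Called doublets made up 0.431% to 2.14% of periportal nuclei. Of the 10 preneoplastic and oncofetal markers, 3 to 5 were at 0, and only 6 nuclei, all in Brca1-WT replicate 1, held 2 or more UMIs of Gpc3, a gene of liver tumors.

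Of 23 further periportal genes at 20 CPM or more, 20 were higher in all 4 libraries, 7 of them more than 2-fold (Ctsc, Cyp2f2, Hsd17b13, Hsd17b6, Etnppl, Sult5a1 and Sdsl), and 1 was lower, with a median log2 ratio of 0.64. Ctsc and Hsd17b6 reached 20 CPM only in periportal nuclei. Over all 26 genes of the list, without a minimum level, 21 were higher and 1 lower, with a median of 0.67. The lower gene was Hpd, which acts in tyrosine breakdown, at 876, 1807, 1519 and 429 CPM against 1194, 2332, 1654 and 481 CPM. Tat, which starts tyrosine breakdown, was higher in some libraries and lower in others (mean log2 ratio 0.04 ± 0.21). Cdh1, E-cadherin, a lower-level member of the list, was at 20.1, 0.911, 12.1 and 1.37 CPM in periportal nuclei, so both libraries numbered 1 were high and both numbered 2 low. Others among the 23 were Fbp1, G6pc, Igf1, Arg1, Asl, Ass1, Otc, Agxt, Apoa4, Mup20, Pck1 and Pigr, with mean log2 ratios from 0.25 (Ass1) to 0.90 (Apoa4). Cdh1, Aldh1b1 and Serpina12 belong to the same list but stayed below 20 CPM on average, outside the 23.

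All 23 pericentral genes at that level were lower in all 4 libraries, 18 of them more than 2-fold, with a median log2 ratio of -2.42. Some reached it only in the other nuclei. Without a minimum level, all 29 genes of the list were lower in all 4 libraries, with a median of -2.29. Cyp2c38 was at 52.6, 44.0, 22.7 and 130 CPM in periportal nuclei and at 1662, 1401, 1004 and 2845 CPM in the others, the widest gap of the 10 lowest genes. Tox, an HMG-box factor, was at 90.4, 40.2, 57.4 and 55.4 CPM against 1454, 1132, 1206 and 1062 CPM. Tbx3, a T-box factor that Wnt signals induce in pericentral hepatocytes, was at 7.11, 3.19, 2.72 and 6.57 CPM against 83.7, 56.9, 57.8 and 106 CPM. No periportal sum reached the lowest of the other nuclei for these 3 genes. The remaining genes of the 10 were Cyp2c29, Cyp2c37, Cyp2a5, Pparg, Tenm3, Tbx3os1 and Airn (mean log2 ratios -3.98 to -3.37). Reads of near-identical P450 genes (the Cyp2c genes, Cyp2a4 and Cyp2a5) and of antisense neighbours (Tbx3 and Tbx3os1, Airn and Igf2r) may be assigned to the wrong partner. Cyp2e1 was at 370, 172, 110 and 143 CPM against 2149, 1822, 1198 and 1609 CPM, Cyp7a1, the first enzyme of bile acid synthesis, at 50.9 to 170 CPM against 507 to 953 CPM, and Axin2, a Wnt target below that level, at 1.92 to 2.53 CPM against 12.4 to 18.8 CPM. The mildest members were Prodh, which oxidises proline (mean log2 ratio -0.47 ± 0.11), and Znrf3, a Wnt receptor antagonist (-0.48 ± 0.11).

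Pathways of the periportal zone were graded to different degrees. Histidine breakdown was high as a chain: beyond Hal and Uroc1, Amdhd1, the next enzyme, was at 257, 270, 243 and 250 CPM against 79.5, 111, 121 and 128 CPM, and Ftcd, the last, was at 682, 801, 832 and 481 CPM against 222, 309, 327 and 180 CPM. Sdsl, a relative of Sds, was at 56.6, 130, 154 and 24.4 CPM against 7.81, 35.3, 33.6 and 6.40 CPM. The partners of Gldc in the glycine cleavage complex had small ratios: the mean log2 ratio was 0.02 ± 0.26 for Amt, 0.15 ± 0.29 for Gcsh and 0.11 ± 0.09 for Dld. Gldc itself helped to choose the nuclei, and its ratio without that is the 2.54 to 3.58 times given above. Of the 8 measured genes of serine, glycine and histidine breakdown outside the rule, 7 were higher in all 4 libraries and 1 lower (Agxt2), with a median of 0.37. Over all genes kept, 25.9% were higher and 25.2% lower in all 4 libraries. Of the 10 measured genes of the urea cycle and its ammonia supply outside the rule, 5 were higher and 1 lower, with a median of 0.15. Asl, argininosuccinate lyase, had the largest ratio there (0.70 ± 0.25) and Arg1, arginase, followed (0.52 ± 0.15). Cps1, the first enzyme of the cycle and part of the hepatocyte gate, was at 9366, 5569, 7888 and 4202 CPM against 8394, 6432, 8654 and 4330 CPM.

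The counts that follow stand against 25.9% of all genes kept that were higher and 25.2% that were lower in all 4 libraries. In gluconeogenesis 9 of 13 genes were higher in all 4 libraries and 2 lower (median 0.24), led by Fbp1 (0.83 ± 0.14) and G6pc (0.77 ± 0.13). Among 18 plasma protein genes 16 were higher and none lower (median 0.30), with Hpx, hemopexin, at 0.73 ± 0.15 and Alb, albumin, at 0.57 ± 0.15. Fatty acid oxidation had 12 of 21 genes higher and none lower (median 0.12). In lipogenesis 7 of 12 were higher and 2 lower: Acly, which makes cytosolic acetyl-CoA, was at 59.4, 58.7, 63.7 and 66.0 CPM against 21.0, 28.1, 29.1 and 32.9 CPM. Of 20 genes of the methionine and folate cycles, 12 were higher and 3 lower (median 0.10), with Mthfd1l, a mitochondrial formate-producing enzyme, at 1.28 ± 0.22. Bhmt itself hardly differed between zones, with 2387, 1314, 761 and 254 CPM in periportal nuclei and 1865, 1207, 718 and 276 CPM in the others (0.11 ± 0.20).

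KO-labelled library 2 was low in many periportal genes and not in others. It was the lowest of the 4 libraries in 15 of 25 periportal genes tested outside the score, where the others were lowest in 4, 2 and 4. For all 12099 genes tested the same counts were 3782 for that library and 3059, 2613 and 2645 for the others. In 8 of the 25 it lay at least 2-fold below every other library, against 227 of all 12099 genes. The 8 were Ass1, Asl, G6pc, Igf1, Apoa4, Agxt, Tat and Sdsl. Ass1 was at 1492, 2156, 3074 and 519 CPM (TMM-normalised, as are all values from here on) and Asl was at 1393, 1311, 1252 and 423 CPM. Got1, the cytosolic aspartate aminotransferase, was at 567, 890, 1419 and 33.8 CPM. Only the last library was low in these 3 genes. All 8 genes were still higher in its periportal than in its other gated nuclei. Cyp2f2 (469, 328, 312 and 418 CPM), Hsd17b13 (517, 617, 501 and 580 CPM) and Ctsc (109, 66.1, 80.1 and 130 CPM) were not low there, and Hsd17b6, a hydroxysteroid dehydrogenase, was highest there at 144 CPM, against 38.1, 23.4 and 7.21 CPM.

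**Figure D3:**
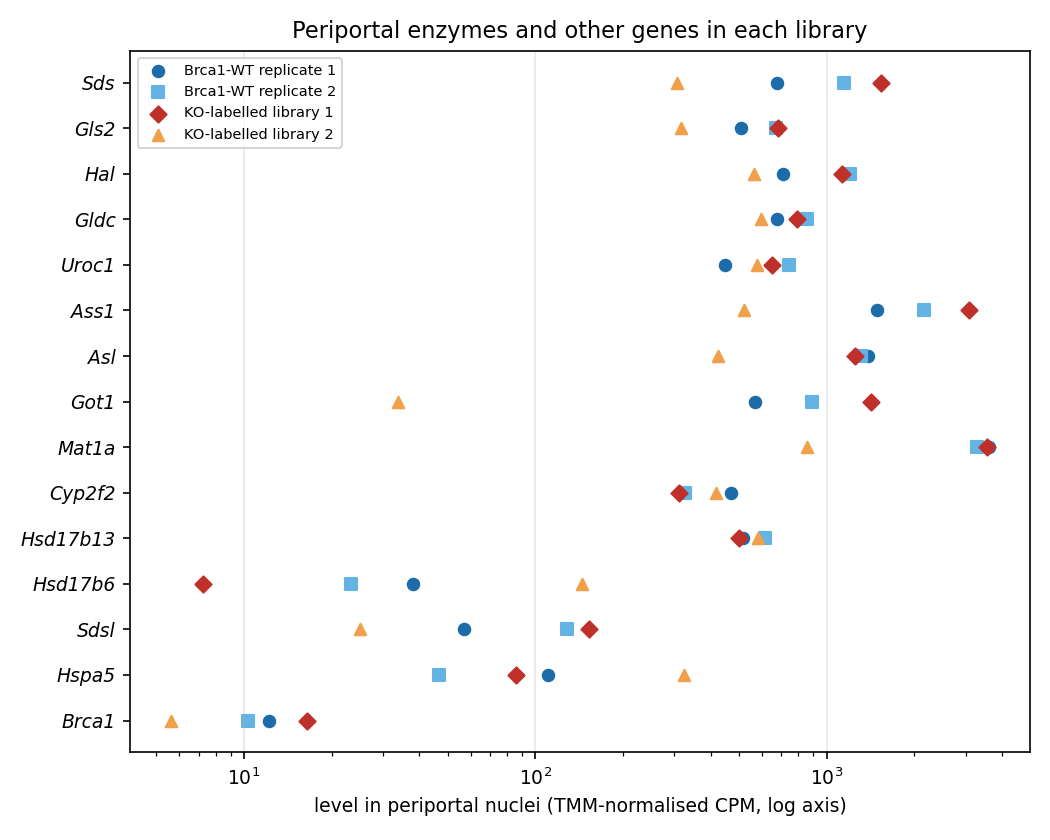
Levels of score genes, urea cycle and other genes in periportal nuclei (TMM-normalised CPM, log axis), 1 point per library. KO-labelled library 2 is lowest for Sds, Gls2, Hal, Gldc, Ass1, Asl, Got1, Mat1a, Sdsl and Brca1 and highest for Hsd17b6 and Hspa5, and lies among the others for Uroc1, Cyp2f2 and Hsd17b13.

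With 1 threshold for all libraries, the 75th percentile of the pooled portal score (24.8 per 10000 UMIs), the share of gated nuclei above it was 17.0% (95% exact Clopper-Pearson interval 15.6 to 18.5%) and 38.9% (37.2 to 40.5%) in the Brca1-WT libraries. It was 39.2% (37.3 to 41.2%) in KO-labelled library 1 and 8.18% (7.32 to 9.11%) in KO-labelled library 2. The intervals cover counting error only. Each genotype held 1 high and 1 low library. The means were 28.0 ± 15.4% and 23.7 ± 21.9% (SD, n = 2 each), a difference of -4.26 percentage points (2-sided exact permutation p = 1.0, where 2 against 2 libraries cannot go below 0.33). Without Brca1-WT replicate 2 the difference was 6.25 points, and without KO-labelled library 2 it was 11.9 points. At the 90th percentile of the pooled score the difference was -0.71 points, and with nuclei thinned to 3000 UMIs it was -2.49 points. It was -15.1 points without Brca1-WT replicate 1 and -19.2 points without KO-labelled library 1.

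The genotypes were then compared within periportal nuclei, on UMIs summed per library. No gene outside the rule passed (edgeR quasi-likelihood test, 0 of 12099 genes, 0% at a Benjamini-Hochberg adjusted p below 0.05, smallest adjusted p 0.9998). At an unadjusted p below 0.05 there were 301 genes, 103 higher and 198 lower in the KO-labelled libraries, fewer than the 605 that 5% of the tested genes would make. DESeq2 called 4 genes, all lower in the KO-labelled libraries (Sntg2, Cyp2b9 and Esrrg among them), and 227 at an unadjusted p below 0.05. Both KO-labelled libraries lay above both Brca1-WT libraries for 14.2% of the genes and below for 14.9%, 29.1% in all. Without KO-labelled library 1, edgeR called 2 genes, Car3 and 4930404H11Rik, and without any other single library it called 0.

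Bhmt was at 2398, 1297, 755 and 261 CPM, with all 4 libraries apart and both Brca1-WT libraries above both KO-labelled libraries. Its log2 fold change of -1.86 (standard error, SE, 0.61) missed the edgeR threshold, at an unadjusted p of 0.0239 and an adjusted p of 0.9998. The change was -2.81 without KO-labelled library 1 (edgeR adjusted p = 0.159) and -1.28 without KO-labelled library 2. Its paralog Bhmt2 was at 336, 277, 194 and 181 CPM (-0.71, SE 0.22), and Dmgdh, which takes the dimethylglycine that Bhmt forms, was at 528, 418, 289 and 329 CPM (-0.61, SE 0.25). None of the 3 passed. The other enzymes of the cycles went no single way: of 23 genes tested, 9 were higher and 14 lower, 2 and 5 of them without overlap (8.70% and 21.7%, against 14.2% and 14.9% of all genes), with a median log2 fold change of -0.16 against -0.00 over all genes. Mat1a, the hepatic methionine adenosyltransferase, was at 3607, 3294, 3545 and 859 CPM, low only in KO-labelled library 2. Brca1 had a log2 fold change of -0.03 (SE 0.52). The value was -0.99 without KO-labelled library 1 and 0.56 without KO-labelled library 2.

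The 8 genes each way with the smallest unadjusted p among those without overlap are described here, chosen by those values. None of the 16 passed with edgeR. Esrrg, the estrogen-related receptor gamma, was at 97.4, 84.9, 36.4 and 34.6 CPM (log2 fold change -1.36, SE 0.20, edgeR adjusted p = 0.9998), and DESeq2 gave it an adjusted p of 0.0491. Sntg2, a syntrophin, was at 503, 288, 55.7 and 116 CPM (-2.21, SE 0.46), with a DESeq2 adjusted p of 0.0143. Adra1a, the α1A adrenergic receptor, was at 177, 159, 83.5 and 76.7 CPM (-1.07, SE 0.19). The libraries of a genotype lay close together for Esrrg and Adra1a and further apart for Sntg2. Cda, cytidine deaminase, Ddhd2, a lipase, Cyp2c37, Acsl5, an acyl-CoA synthetase, and Elovl5, a fatty acid elongase, were lower, with ratios of 0.450 to 0.532.

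On the higher side, Hsp90aa1, a cytosolic chaperone, was at 36.5, 38.7, 70.1 and 84.3 CPM (1.04, SE 0.21). Banp, a nuclear matrix protein, was at 117, 117, 215 and 236 CPM (0.95, SE 0.19). P4ha1, a collagen prolyl hydroxylase, was at 40.3, 60.3, 107 and 149.8 CPM (1.35, SE 0.29). The ratio of the group means was 2.05, 1.93 and 2.55 for these genes. Lnx1, a ubiquitin ligase, Trhde, a peptidase, Syvn1, a ubiquitin ligase of the endoplasmic reticulum, Nebl, nebulette, and Slc15a2, a peptide transporter, had ratios of 1.94 to 3.43.

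**Figure D4:**
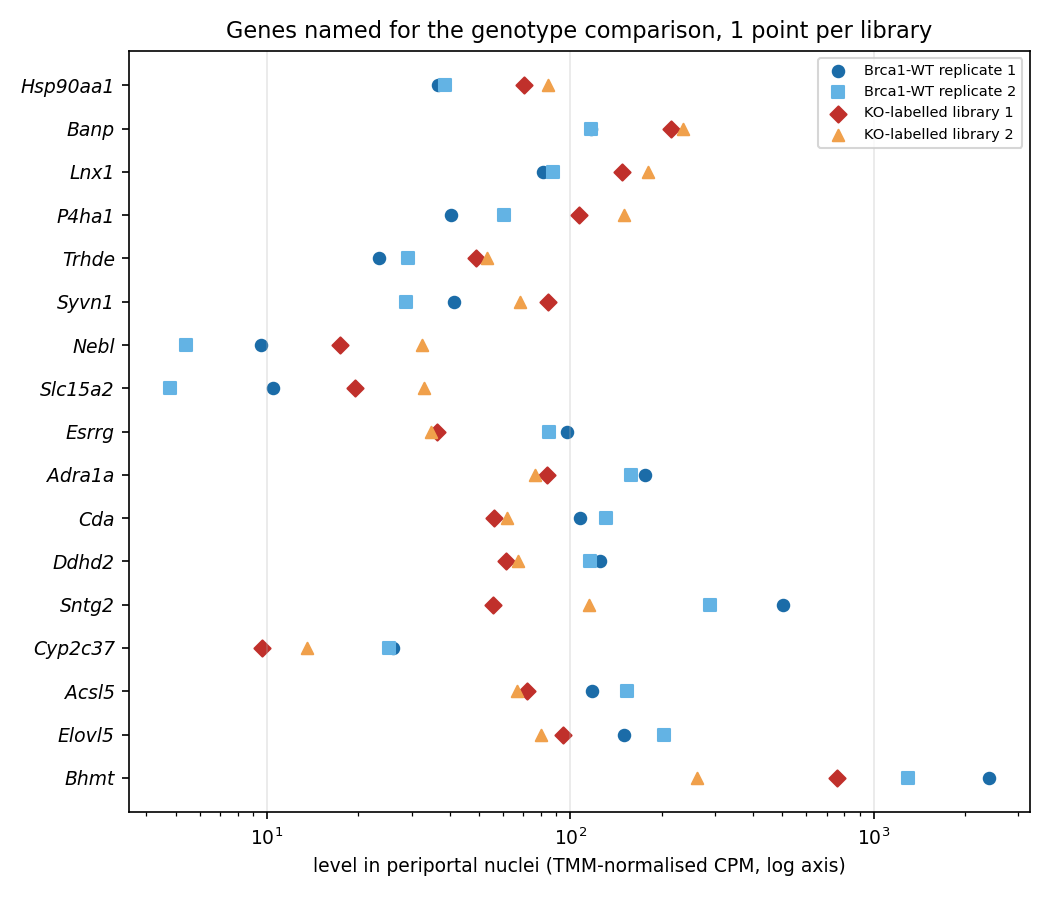
Levels in periportal nuclei (TMM-normalised CPM, log axis) of the 16 genes with the smallest unadjusted p and of Bhmt, 1 point per library. The points of the 2 genotypes do not overlap in any row, which the choice of the 16 required, and no row passed the edgeR test.

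The gene lists were chosen with earlier results of these data known, so their shares here and below are a description. By gene list, the unfolded protein response had 20 of 21 genes higher in the KO-labelled libraries, 11 without overlap (52.4%, against 14.2% of all genes), a median log2 fold change of 0.81 and no gene that passed. Most of that came from 1 library: relative to the Brca1-WT mean, the list's median was 0.31, -0.39, 0.27 and 1.24 on the log2 scale. Hspa5, the chaperone BiP, was at 111, 46.6, 86.2 and 324 CPM. Pdia3, a disulfide isomerase, was at 117, 61.8, 132 and 422 CPM, and Herpud1, of the degradation machinery, was at 386, 378, 392 and 927 CPM. KO-labelled library 2 was the highest in 19 of the 21, KO-labelled library 1 was close to Brca1-WT replicate 1, and Brca1-WT replicate 2 was the lowest in 20. Syvn1 was the exception, at 41.3, 28.8, 84.6 and 68.4 CPM, high in both. This list hardly differed between zones (median log2 ratio 0.03).

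Fatty acid oxidation and ketogenesis had 22 of 25 genes lower, 14 without overlap (56.0%, against 14.9% of all genes), with a median of -0.37 and no gene that passed. This list, too, was chosen with earlier results known, so the 56.0% is a description. Here both KO-labelled libraries were low, with list medians of -0.10, 0.10, -0.47 and -0.40 relative to the Brca1-WT mean. Acot1, an acyl-CoA thioesterase, was at 17.9, 16.9, 3.61 and 6.47 CPM (-1.78, SE 0.35, edgeR unadjusted p = 0.00268). Vnn1, a pantetheinase, was at 10.8, 9.45, 3.61 and 3.52 CPM (-1.50, SE 0.30). Cyp4a10, a fatty acid hydroxylase, was at 485, 792, 261 and 79.3 CPM, and Cyp4a14 at 1232, 2087, 768 and 294 CPM. These 4 are known targets of the nuclear receptor PPARα, and reads of Cyp4a10 and Cyp4a14, or of the Acot genes, may be shared between near-identical copies. Ppara itself was at 2383, 2795, 2334 and 3307 CPM, with the genotypes overlapping.

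**Figure D5:**
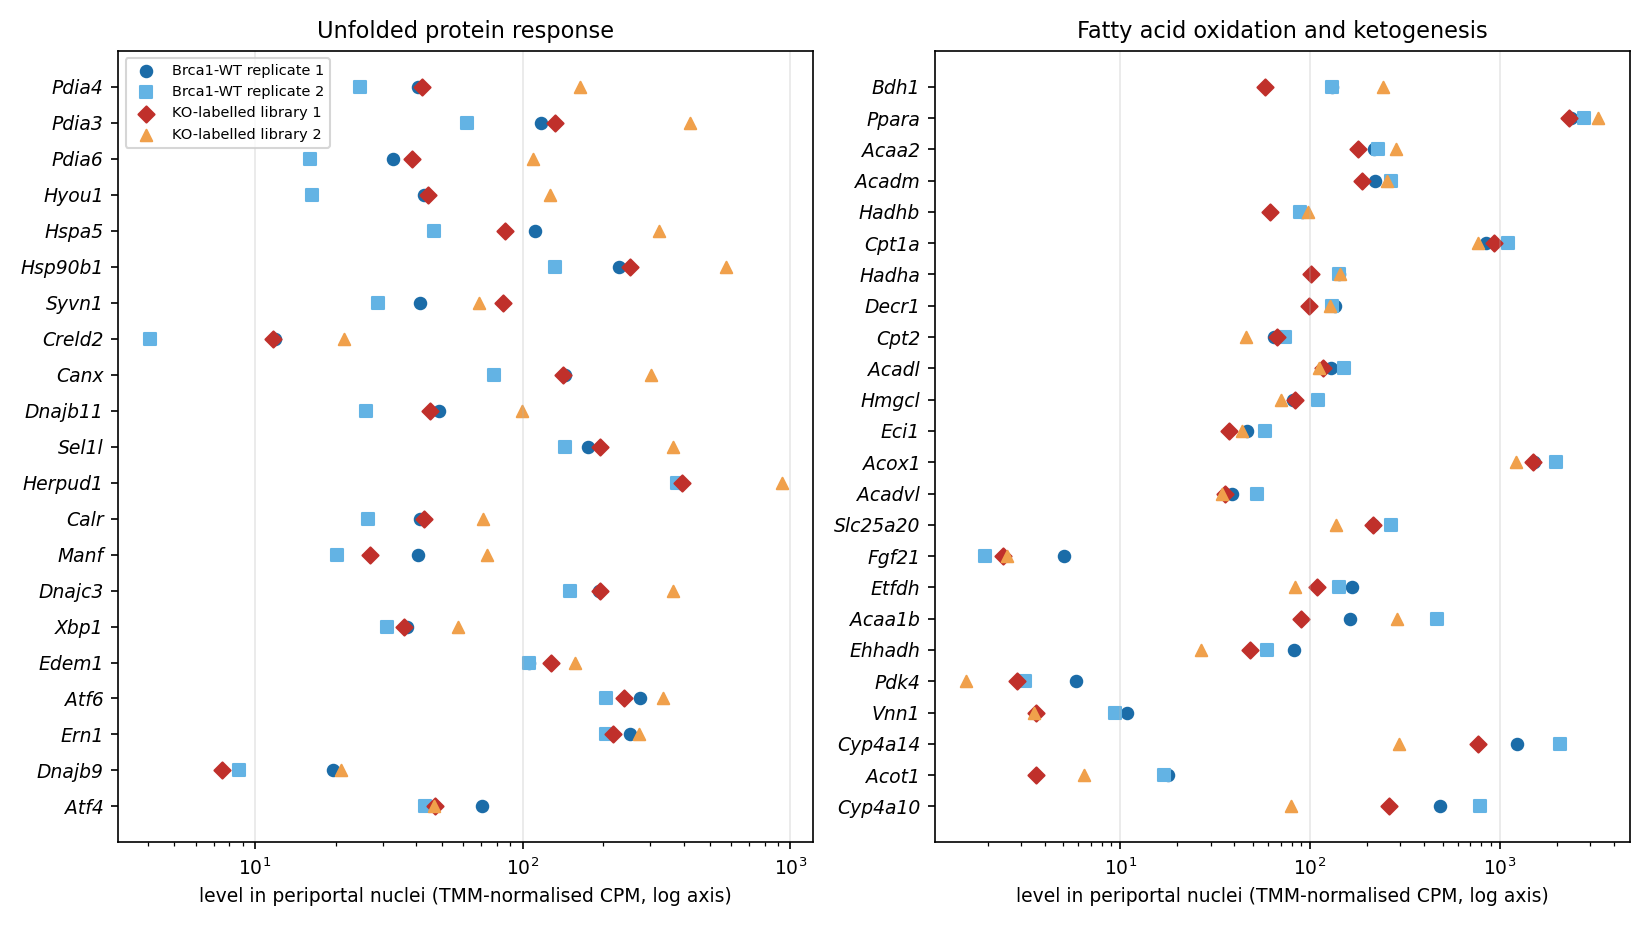
Levels in periportal nuclei (TMM-normalised CPM, log axis) of the 21 tested genes of the unfolded protein response (left) and 24 of the 25 of fatty acid oxidation and ketogenesis (right), ordered by fold change, 1 point per library. On the left KO-labelled library 2 is highest in 19 rows and Brca1-WT replicate 2 lowest in 20. On the right both KO-labelled libraries lie below both Brca1-WT libraries in 13 rows.

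Among the other lists of hepatocyte genes, cholesterol synthesis and uptake had 13 of 19 genes higher, 8 without overlap (42.1%, against 14.2% of all genes), with a median of 0.22, while Insig2, which holds back the sterol-sensing pathway, was at 627, 385, 308 and 171 CPM (-1.08, SE 0.40). The 25 pericentral genes tested had a median of -0.32, with 6 lower without overlap (24.0%, against 14.9% of all genes). Relative to the Brca1-WT mean, the list's median was 0.14, -0.15, -0.72 and 0.14, so the lowering came from KO-labelled library 1. The 25 periportal genes had a median of -0.16, with 2 higher (8.0%) and 3 lower (12.0%) without overlap, near the shares over all genes. Relative to the Brca1-WT mean their median was 0.03 in KO-labelled library 1 and -0.98 in KO-labelled library 2. The urea cycle list had a median of -0.08, gluconeogenesis -0.15 with 12 of 13 genes lower, and lipogenesis -0.09. In lipogenesis Srebf1, a master regulator, was at 19.2, 23.1, 11.4 and 13.8 CPM and Thrsp at 19.4, 7.80, 4.21 and 3.10 CPM.

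Of 17 circadian clock genes tested, 7 were higher and 10 lower in the KO-labelled libraries, with a median of -0.05. Without overlap, 3 were higher (17.6%, against 14.2% of all genes) and 0 lower (against 14.9%). Nr1d1, a clock repressor, was at 15.6, 9.45, 22.2 and 36.6 CPM (1.23, SE 0.37), and its relative Nr1d2 was at 141, 155, 198 and 251 CPM (0.60, SE 0.22). The hour of death of each mouse is not given. Among 12 p53 targets Cdkn1a, a cell cycle inhibitor, was at 9.21, 14.4, 22.1 and 0.141 CPM, so the KO-labelled libraries held both its highest and its lowest value. The 18 genes of homologous recombination had a median of -0.03, and the smallest unadjusted p there was that of Brca2, at 17.6, 24.1, 13.4 and 13.9 CPM (-0.61, SE 0.25). Of the heat shock genes, Hsph1 was at 21.4, 47.2, 84.1 and 154 CPM (1.79, SE 0.48). None of these genes passed.

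Endothelial and Kupffer cell marker sums did not overlap between genotypes in the periportal nuclei, and no test was made on them. Of all 12099 genes tested, 29.1% did not overlap either way. The endothelial sum was 49.5 to 61.0 CPM in the Brca1-WT libraries and 21.5 to 34.7 CPM in the KO-labelled ones, with at most 1 of the 10 markers at 0. The Kupffer cell sum over 8 markers, 2 of which the rule uses, was 20.8 to 24.8 CPM and 8.02 to 14.2 CPM, with at most 1 marker at 0. The bile duct, stellate, T and NK and B cell sums overlapped between genotypes. The other gated nuclei had the same endothelial split, 42.7 to 58.3 CPM against 17.1 to 32.7 CPM in the KO-labelled libraries. Their Kupffer cell sums were 19.3 to 21.7 CPM against 10.6 to 11.1 CPM. In high-central nuclei the endothelial sums were 51.8 to 66.8 CPM against 22.3 to 37.8 CPM, so the split was not particular to periportal nuclei. The part of these cells in the differences above was not tested.

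Whether the genotypes differed by another amount in periportal than in high-central nuclei was tested with the zone by genotype term on 8 sums. No gene outside the rule passed with edgeR (0 of 12678, 0%, smallest adjusted p 0.744, 429 at an unadjusted p below 0.05) or with DESeq2 (0, and 61 at an unadjusted p below 0.05). Without the filter on low counts edgeR called 29 genes, among them 6 of the 10 named here: Nr0b2 (adjusted p = 0.00367), Pvt1 (8.78e-07), Pdzrn3 (4.03e-05), Platr4 (0.0135), Med12l (0.0134) and Kctd21 (0.0320). Without KO-labelled library 1, Nr0b2, Pvt1 and Pdzrn3 passed too. Nr0b2, a nuclear receptor that lacks a DNA-binding domain, was at 33.6, 31.2, 18.6 and 71.4 CPM in periportal nuclei and at 5.92, 4.82, 5.93 and 28.1 CPM in high-central nuclei. Its log2 ratio between zones (CPM without TMM, plus 1) was 2.31, 2.49, 1.49 and 1.35, smaller in both KO-labelled libraries (term -1.16, SE 0.22, edgeR adjusted p = 0.992). Platr4, a long noncoding RNA, had ratios of 2.24, 2.04, 1.29 and 1.41 (term -0.85, SE 0.18). The ratio of Plxnb1, a semaphorin receptor, was 0.80, 0.92, 1.28 and 1.76, larger in both (term 0.65, SE 0.18, and 0.43 without KO-labelled library 2). Kctd21, Parp14, Apol9b and Elovl2, a fatty acid elongase, had terms of 0.47 to 0.87, and Med12l and Pvt1, a long noncoding RNA, had terms of -1.01 and -1.34. The term of Pvt1 was -0.85 without Brca1-WT replicate 1, and that of Elovl2 was 0.29 without KO-labelled library 2.

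Pdzrn3, a ubiquitin ligase, had the smallest p and rested on 1 sum. It was at 2.37, 1.12, 0.608 and 363 CPM in high-central nuclei and at 0.788, 0.746, 0.150 and 8.46 CPM in periportal nuclei (term -4.22, SE 0.67), and the term was -0.75 without KO-labelled library 2. Without KO-labelled library 1, 59 genes passed, among them, chosen here after their values were seen, Pck1, the gatekeeper of gluconeogenesis. Pck1 was at 2757, 3333, 2348 and 2489 CPM in periportal nuclei and at 2238, 2691, 1937 and 1035 CPM in high-central nuclei, so only KO-labelled library 2 had a steep gradient. Without Brca1-WT replicate 2, 1 gene passed (Tafa2), without KO-labelled library 2, 3 passed (Gm13775, Grip1 and Rad51b), and without Brca1-WT replicate 1 none did.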

How the data were processed

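The authors deposited raw UMI counts per gene and barcode, not normalised. Per the file headers, the matrices come from Cell Ranger 6.0.0. The processing notes name the human build GRCh38, while all identifiers are of mouse genes, so the mouse build is not given, nor is the use of strand or of intronic reads. The members and gene lists were chosen with earlier results of these data known.

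UMIs were summed per library over periportal, other gated and high-central nuclei. Sums were compared as Brca1-KO minus Brca1-WT with edgeR 4.0.16 in R 4.3.3 (TMM, filterByExpr, robust glmQLFit, glmQLFTest), and the zone by genotype term with library as a block. DESeq2 1.42.0 was an alternative. Genes used by the rule stayed in the fits and left the counts. Both fits were tested on simulated data. Doublets were called with Scrublet in scanpy 1.11.5 and kept, and a fit without them was an alternative. Nuclei were thinned to 3000 UMIs where stated. Endothelial barcodes gave the level in another cell type.

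Genes named were the score genes, Brca1 and Bhmt, the 15 highest and 10 lowest ratios at 20 CPM or more, the 8 each way of smallest p between genotypes and the 5 each way for the zone term (average log2 CPM of at least 4), and up to 4 per list, leaving out unnamed models. Further members of a list are given where its result turns on them. Symbols shared by 2 identifiers, such as Ddit3, were left out of the lists.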

Additional observations from a re-analysis of the deposited data

How the results depend on the processing

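Each group held 2 libraries. Between genotypes in periportal nuclei, edgeR called 0 genes, DESeq2 called 4, edgeR without a filter on low counts called 1, and leaving out 1 library gave 0 to 2. For the zone by genotype term, with 0 calls, 29 passed without a filter on low counts and leaving out 1 library gave 0 to 59. The difference in the share above the pooled threshold ranged from -19.2 to 11.9 points when 1 library was left out, and reversed to 6.25 and 11.9 points without Brca1-WT replicate 2 and without KO-labelled library 2. The other alternatives, 33 in all over these 3 results, gave 0 calls again or kept the sign of the share difference. That difference moved to -0.71 points at the 90th percentile and -2.49 points with thinning. The 33 include RLE scaling, top 15% or 35%, a common threshold, thinning, and doublets or nuclei with Gpc3 UMIs left out. They also include at least 5000 UMIs, the 90th percentile, scores without 1 gene and the replicate block, each where it applies. DESeq2 for the zone term, the crossed pairing and the remaining runs without 1 library are counted too. For the share, the replicate block could not change the difference, which pairing leaves as it is. The log2 fold change of Brca1 turned to 0.24 with the top 15%, 0.0268 with the top 35%, 0.19 with a common threshold, 0.0275 with thinning, 0.10 without Brca1-WT replicate 1 and 0.56 without KO-labelled library 2 (-0.99 without KO-labelled library 1). The cause was not tested. For single genes, 11 results passed only under an alternative and 383 kept their call: Esrrg and Sntg2 passed with DESeq2, and for the zone by genotype term Kctd21, Pdzrn3, Nr0b2, Platr4, Pvt1 and Med12l passed without a filter on low counts, with Pdzrn3, Nr0b2 and Pvt1 passing also without KO-labelled library 1.

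With edgeR, the replicate block gave 0 calls and 255 genes at an unadjusted p below 0.05, against 301 without it. The 2 same-numbered pairs differed in the share by 22.2 and -30.7 points. Their mean of -4.26 points equals the difference of the group means by construction, so it is no separate result. Deviations of same-numbered libraries correlated at -0.11, so the numbers were not taken as pairs. The crossed pairing, added after the data were examined, gave 0 calls and 356 genes at an unadjusted p below 0.05.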
